A study of Homo sapiens with 26 samples.

Results

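The genes examined were the 48 protein-coding genes whose symbols follow the pattern PSMA to PSMG with a number, that is the subunits of the proteasome, its assembly chaperones, its activators and its inhibitor. They were picked by symbol alone out of 20046 protein-coding genes, with no measured value involved, and lie on 17 chromosomes. All 48 were listed in RNA-seq. In ribosome profiling 43 had an entry of their own and 5 (PSMA1, PSMA2, PSMA6, PSMB10 and PSMD9) shared an entry with an overlapping gene, so that no footprint could be given to them. Most encode mid-length proteins, with a median of 272 aa, 34 members between 200 and 400 aa, 2 below 200 aa (PSMG3 and PSMG4) and 12 above 400 aa, up to PSME4 with 1843 aa.

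The proteasome degrades ubiquitinated proteins in the cytosol and nucleus. Its 20S core is a barrel of stacked rings, in which the alpha subunits (PSMA) form the gate and the beta subunits (PSMB) form the inner chamber, where PSMB5, PSMB6 and PSMB7 carry the proteolytic sites. The 19S particle caps the core: its base holds a ring of ATPases (PSMC) that unfold substrates and the scaffold subunits PSMD1 and PSMD2, and its lid removes ubiquitin through PSMD14. PSMG chaperones assemble the core, PSMD5, PSMD9 and PSMD10 help to assemble the base, PSME proteins are alternative activators, and PSMF1 is an inhibitor. None of these proteins is anchored in a membrane and none is a mitochondrial protein, so their mRNAs give a view of how soluble, well-translated proteins behave in this assay.

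HEK293T, a line of human embryonic kidney origin, was used throughout. In these cells the endogenous ribosomal protein RPL29 carries an Avi tag (RPL29-Avi, a monoclonal knock-in) and a blue-light-activated biotin ligase, LOV-BirA, labels ribosomes near it. In ribosome profiling, LOV-BirA was at the ER (fused to Sec61β, SFFV promoter), at the outer mitochondrial membrane (OMM, fused to the transmembrane domain of OMP25, EF1α promoter) or free in the cytosol (EF1α promoter), in sorted polyclonal lines. Each location had 2 replicates of a total input and a streptavidin pulldown taken from the same lysate, 12 libraries in all, with ribosomes held by cycloheximide (CHX). RNA-seq followed mRNAs pulled down with the OMM ligase in 14 libraries: wild-type cells with a negative control gRNA, AKAP1 null cells and LARP4 null cells (each null being 1 monoclonal line made with CRISPR), all in duplicate, as well as a single replicate of cells to which no CHX was added. The label of that replicate names no genotype or gRNA. AKAP1 is an OMM protein that binds mRNA, and LARP4 is an RNA-binding protein. Both null lines share the wild-type libraries as their control.

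Coding-sequence totals ran from 1025114 footprints (OMM pulldown replicate 1) to 19539527 (ER pulldown replicate 1), and RNA-seq totals from 38347615 to 100840544 counts, so the OMM pulldowns are the least precise. AKAP1 mRNA was at 32.2 and 20.3 CPM (counts scaled to the library total) in the AKAP1 null total inputs against 115 and 119 in wild-type, and LARP4 mRNA at 79.3 and 74.0 in the LARP4 null against 225 and 231. All 7 HEK293T markers were above 1 CPM in every total input (sum 790 to 1111 CPM), and of 6 markers of other cell types none was (sum 1.33 to 2.29 CPM, with INS, the insulin gene, at 0). By their run directories, the cytosol replicate 1 pulldown and total input were sequenced in different runs. Here, enrichment is the fitted log2 ratio of pulldown to total input, on library totals, and a gene is called higher or lower at an adjusted p below 0.05 over all genes tested.

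The tested subunits of the 20S core were translated well above the level of the typical gene in these cells, and their levels were close to each other. Per length, the 11 core subunits that passed the minimum of 64 footprints had a median of 339 to 497 RPKM (footprints per kilobase of counted coding positions, scaled to sequencing depth) over the 6 total inputs, against a median of 21.0 to 29.2 RPKM for all genes tested. The SD of their log2 RPKM was 0.34 to 0.52, against 2.03 to 2.26 over all genes tested. PSMB1 had 653 and 880 RPKM in the ER line, 847 and 823 in the OMM line and 766 and 550 in the cytosol line, and PSMA4, of the gate ring, had 552, 847, 673, 769, 605 and 402 RPKM in the same libraries. Both were above every ATPase in each library.

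The 19S particle was translated at a lower level per length. Its 16 tested subunits had a median of 130 to 161 RPKM, with an SD of log2 RPKM of 0.66 to 0.93. Within it, the ATPases had medians of 121 to 162 RPKM, with PSMC3 at 76.3 to 90.4 RPKM over the 6 total inputs. The lid reached 420 RPKM with PSMD7, the partner of the deubiquitinase PSMD14, and the scaffold PSMD2 stayed between 39.2 and 81.0 RPKM. Lowest of the tested members were PSMG4 (17.4 to 41.7 RPKM), PSMG2 (35.3 to 43.1) and the large activator PSME4 (26.4 to 38.3). PSMG1, the partner with which PSMG2 forms a chaperone dimer, was at 201 to 324 RPKM. In RNA-seq, the same order was seen in mRNA per length: the 11 core subunits had a median FPKM of 53.8 to 83.2 in the 7 total inputs and the 19S subunits one of 24.1 to 30.2, against 5.56 to 5.86 for all genes tested.

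**Figure D1:**
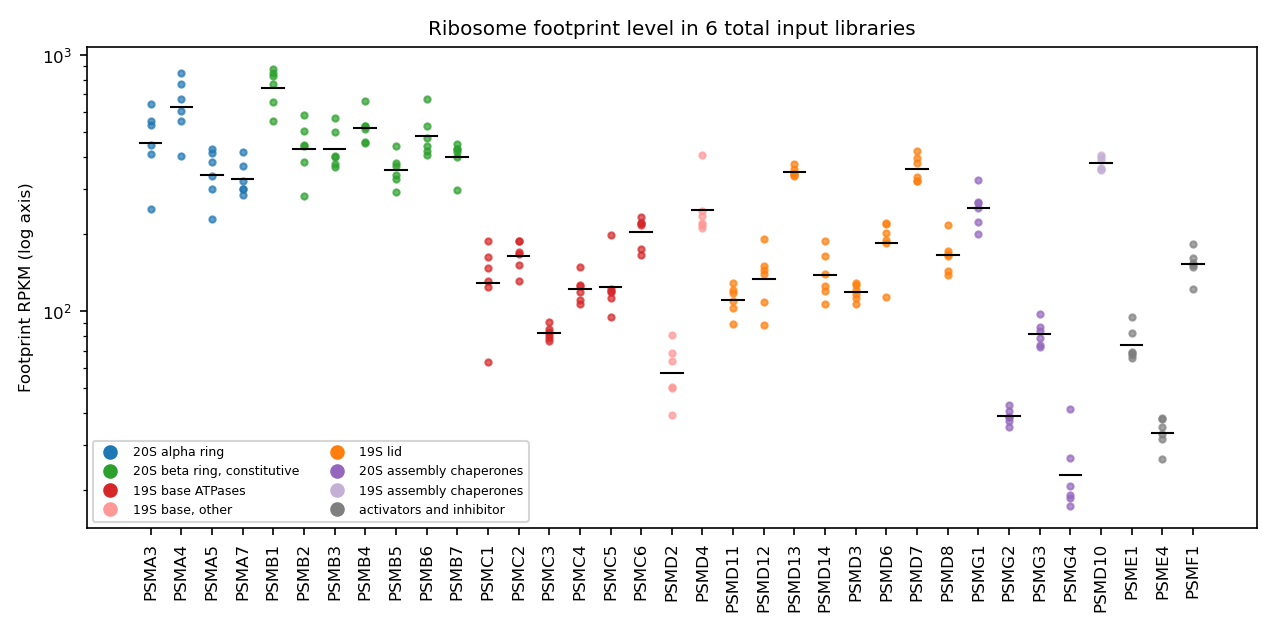
Footprint RPKM (vertical log axis) of the 35 tested proteasome genes in the 6 total input libraries (points) with their geometric mean (black bar), coloured by role. The alpha and beta subunits of the core sit between 229 and 880 RPKM, and PSMG4, PSME4 and PSMG2 are lowest.

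Several members were at or near 0 at this depth. The immunoproteasome subunit PSMB8 had 0 to 6 RNA-seq counts per library and no footprint in coding sequence, and PSMB9 had 3 to 65 counts (at most 1.23 CPM) and 4 to 36 footprints. PSMB10, the other interferon-inducible subunit, had 7 to 64 counts. The thymus subunit PSMB11 was at 0 in every library and the testis subunit PSMA8 had at most 2 counts. PSMD5, a chaperone of the 19S base expressed in many tissues, had 0 to 8 counts in RNA-seq, with 0 in 8 of 14 libraries, and no footprint over 1420 counted positions. Whether these counts represent the gene was not settled, so they are no measure that PSMD5 is silent. PSMD1, PSME2 and PSME3 were abundant as mRNA (up to 336, 77.9 and 369 CPM) but only 85, 80 and 39 of their coding positions were counted, which left them under the minimum in ribosome profiling. After these losses 35 members were tested in ribosome profiling at each location and 42 in RNA-seq.

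Proteasome genes are known to be transcribed together under NFE2L1, a transcription factor made at the ER that acts at antioxidant-response-type elements. Promoter sequences from RefSeq (GRCh38.p14, 250 bases before to 50 after the start) matched 42 of the 48 symbols. The core of such an element, TGACNNNGC on either strand, with no other motif searched, was present in 13 of these 42 (31.0%) and in 13.6% of 27305 promoters in the table. A match in letters is not evidence of binding, and these data hold no measure of binding. Windows around a match upstream of the start on the gene's strand are shown, with the fixed letters of the motif in capitals. They are those of members of the beta ring, the lid and the activators that were tested in ribosome profiling.
PSMB3 (chr17:38752627-38752655, plus strand): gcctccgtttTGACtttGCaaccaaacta
PSMD3 (chr17:39980760-39980788, plus strand): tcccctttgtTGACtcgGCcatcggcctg
PSMD12 (chr17:67366724-67366752, minus strand): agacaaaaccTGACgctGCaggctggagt
PSME1 (chr14:24136098-24136126, plus strand): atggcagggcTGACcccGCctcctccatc

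At the OMM, 3 members stood far above the rest of the complex. PSMA7, an alpha subunit of the gate ring (chr20:62136733-62143440), had 416 and 320 RPKM in the total inputs and 1028 and 897 RPKM in the pulldowns. PSMG3, which forms a chaperone dimer with PSMG4, had 97.3 and 72.3 RPKM in the total inputs and 241 and 193 in the pulldowns. PSMG4 itself had 26.8 and 18.7 RPKM against 61.9 and 44.3, over 855 counted positions that exceed the 369 nt of its canonical coding sequence. In all of these the pulldowns lay above both total inputs, and the log2 enrichment was 1.42 ± 0.09 (SE, adjusted p = 6.6e-10), 1.39 ± 0.14 (adjusted p = 3.15e-07) and 1.25 ± 0.18 (adjusted p = 1.19e-05). The next member was PSME1 at 0.48.

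The other members are described by subcomplex, with no test between subcomplexes. Of the 7 constitutive beta subunits, 5 were called higher in the OMM pulldown and none lower: PSMB6 at 0.45 ± 0.11, PSMB3 at 0.39 ± 0.11, PSMB1 at 0.37 ± 0.08, PSMB2 at 0.36 ± 0.09 and PSMB4 at 0.33 ± 0.09, with PSMB5 at 0.20 and PSMB7 at 0.06 not called. Among the 8 lid subunits, none was higher and 6 were lower, with PSMD11 at -0.77 ± 0.11 (128 and 121 RPKM in the total inputs, 68.4 and 73.8 in the pulldowns) and PSMD6 at -0.69 ± 0.10. Of the 6 ATPases 3 were lower, PSMC1 at -0.74 ± 0.19, PSMC2 at -0.52 ± 0.17 and PSMC4 at -0.42 ± 0.10. In the alpha ring, PSMA3 at -0.70 ± 0.15 and PSMA4 at -0.36 ± 0.10 were lower and PSMA5 at -0.13 was not called, so the ring held PSMA7 and members below 0. At an unadjusted p below 0.05 there were still 0 beta subunits lower and 0 lid subunits higher. Over all exons PSMD8 of the lid was called higher at 0.25 (adjusted p = 0.0198), against 0.23 and no call on counted positions. Also over all exons, PSMB5 was called higher at 0.29, and PSMD7 of the lid and the ATPase PSMC3 were called lower at -0.32 and -0.40. With TMM scaling, which centres the median gene, all 7 beta subunits were higher, while 2 lid subunits were lower and 1 higher and 0 ATPases were lower (1 at an unadjusted p below 0.05, and 0 by DESeq2). The lowest members were PSME4 at -0.95 ± 0.13, with 35.5 and 38.3 RPKM in the total inputs and 19.5 and 18.7 in the pulldowns, and PSMD2 at -0.81 ± 0.13, with 81.0 and 63.96 against 43.3 and 37.4.

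Over all 35 members at the OMM, 10 were higher and 14 lower, while 17% of 6728 genes tested were higher and 46% lower, and the median was -0.20 for members and -0.38 for all genes. Library totals place the median gene below 0, and with TMM scaling 15 members were higher and 5 lower, against 25.8% and 24.4% of all genes. PSMC5, an ATPase, was called higher at 0.47 ± 0.15 on its 206 counted positions, but was at -0.11 over all of its exons (adjusted p = 0.298), whereas PSMA7, PSMG3 and PSMG4 stayed at 1.26, 1.24 and 1.18. Counting all exons, 12 of 38 members were higher and 17 lower, against 16.5% and 49% of all genes. Without OMM replicate 1 the members' median was -0.31, and without replicate 2 it was -0.03. Each of these medians rests on a lone OMM replicate, and those of all genes in the same fits are not given.

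**Figure D2:**
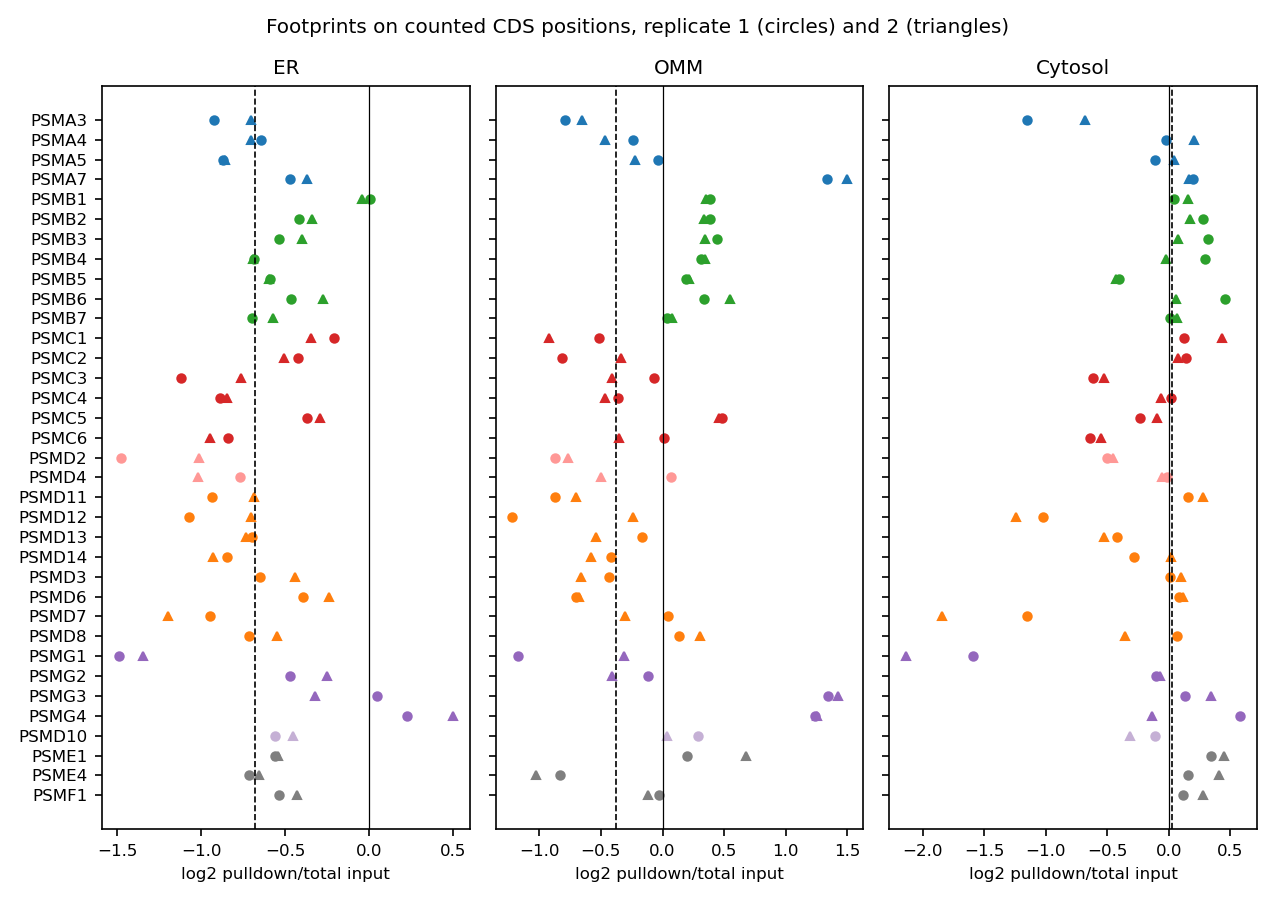
Log2 ratio of footprints in the pulldown to the total input for each of the 35 tested members in each replicate at the ER, the OMM and in the cytosol, with dashed lines at the median of all genes tested (-0.68, -0.38 and 0.02). PSMA7, PSMG3 and PSMG4 stand to the right at the OMM, and PSMG1, PSMD7, PSMD12 and PSMA3 to the left in the cytosol.

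At the ER, the proteasome behaved like the typical gene. In this comparison 31 of 35 members were lower in the pulldown and 1 higher on library totals, against 72% and 19.8% of 7381 genes tested. The members' median was -0.64 and that of all genes -0.68, while the SD was 0.34 among members and 1.098 among all genes. The direction depends on where the zero is placed: with TMM scaling 9 members were higher and 7 lower, against 29.2% and 25.4% of all genes. Over all exons, 1 member was higher and 32 of 38 were lower, against 20.9% and 72%.

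The member called higher at the ER was PSMG4, with 19.1 and 17.4 RPKM in the total inputs and 28.9 and 28.1 in the pulldowns, an enrichment of 0.35 ± 0.15 (adjusted p = 0.0382). That call was lost when either ER replicate was left out (adjusted p = 0.0615 and 0.334). Next were PSMB1 at -0.02, with 653 and 880 RPKM against 844 and 978, and PSMG3 at -0.12. Both were above 0 with TMM scaling, at 0.62 and 0.52. At the other end were PSMG1 at -1.43 ± 0.16, PSMD2 at -1.25 ± 0.11, and PSMD7 at -1.06 ± 0.15, with 322 and 334 RPKM in the total inputs and 216 and 167 in the pulldowns. Of these PSMD2 remained low over all exons (-0.99), while PSMG1 was at -0.02 and PSMD7 at -0.25.

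In the cytosol, where LOV-BirA is not anchored, most members were recovered in proportion to their total input, with a median of 0.04 for members and 0.02 for all genes. None of the 35 members was called higher and 9 were called lower by edgeR, against 2.02% and 5.96% of 7162 genes tested. At an unadjusted p below 0.05, 5 members were higher, and DESeq2 called 0 higher and 9 lower. The shares of all genes at the unadjusted p and by DESeq2 are not given, so these counts are no result about the members. Without cytosol replicate 1 or 2 there were 1 and 2 members higher. The highest were PSME1 at 0.39, PSME4 at 0.27 and PSMB6 at 0.26, none of them called. PSME1, a subunit of the PA28 activator, had 67.3 and 68.5 RPKM in the total inputs and 100 and 109 in the pulldowns. PSME4 had 33.3 and 26.4 RPKM against 43.6 and 41.0, and PSMB6 had 527 and 420 against 852 and 512.

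PSMG1, PSMD7, PSMD12 and PSMA3 lay more than 3 scaled median absolute deviations below the members' median in the cytosol. PSMG1 had 267 and 264 RPKM in the total inputs and 104.002 and 70.5 in the pulldowns, a log2 enrichment of -1.84 ± 0.16 (adjusted p = 3.41e-07). PSMD7 had 395 and 377 against 210 and 123 (-1.46 ± 0.15), PSMD12 had 145 and 191 against 83.8 and 94.4 (-1.13 ± 0.16), and PSMA3 had 549 and 249 against 290 and 182 (-0.95 ± 0.13). All of these values rest on small windows. The deposited counts cover only the coding positions that the authors' position file kept for a gene, which came to 131 positions for PSMG1, 84 for PSMD7, 129 for PSMD12 and 94 for PSMA3.

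Counted over all exons, the low values of PSMG1, PSMD12 and PSMA3 in the cytosol were at -0.04, 0.12 and -0.10, none of them called, and PSMD7 stayed lower at -0.43 ± 0.09 (adjusted p = 0.00381). PSMB6 was then called higher at 0.29 (adjusted p = 0.0356), so that 1 of 38 members was higher and 1 lower, against 3.58% and 6.84% of 8979 genes. The SD over members was 0.15 in place of 0.51, against 0.41 over all genes. Of the 12 members with fewer than 250 counted positions, the SD in the cytosol was 0.72 on those positions and 0.17 over all exons, and of the 23 with more it was 0.24 and 0.12. Lower calls on counted positions numbered 6 among these 12 members and 3 among the 23, so they were not confined to small windows. The members tested at the OMM had a median of 40.8% of their canonical coding sequence counted, with 18 of 35 under 50%, and all genes tested one of 88.3%. Counts over all exons were chosen as a comparison after the values were seen. They also hold footprints in untranslated exons.

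**Figure D3:**
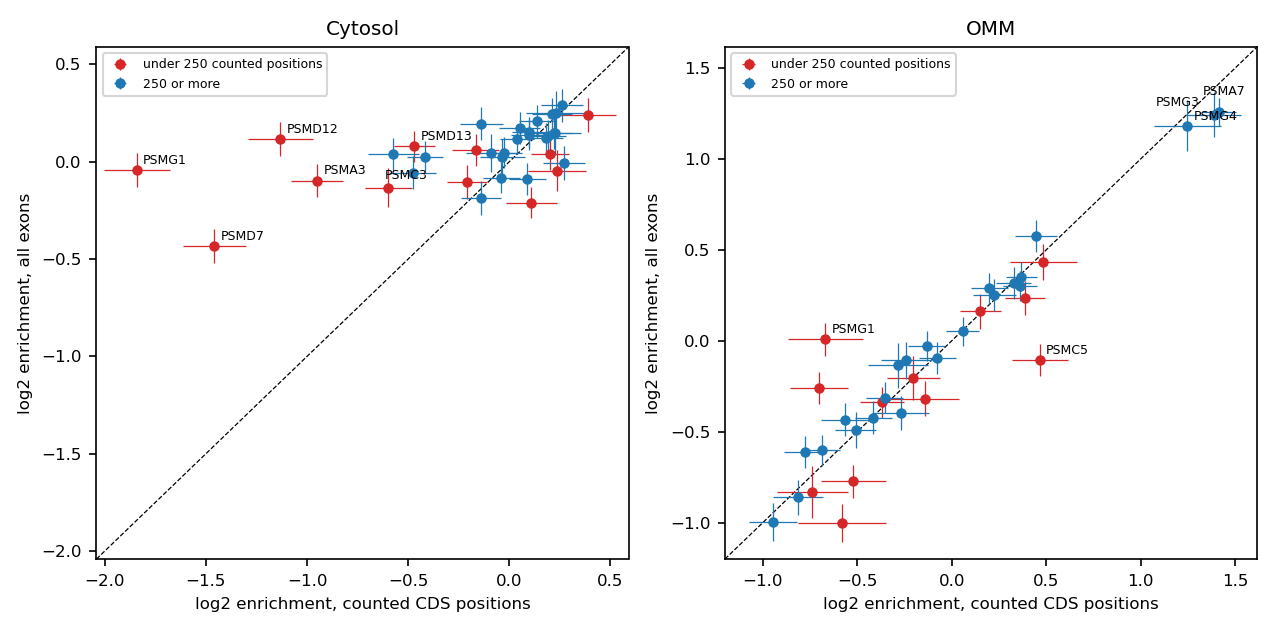
Fitted log2 enrichment on counted coding positions (horizontal) and over all exons (vertical), with standard errors, in the cytosol and at the OMM, with members of under 250 counted positions in red and the line of equality dashed. The low cytosol values of PSMG1, PSMD12 and PSMA3 move to near 0, and PSMA7, PSMG3 and PSMG4 stay above 1 at the OMM.

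Set against the cytosol in the same fit, ER enrichment was lower for 21 of 35 members and higher for none by edgeR on library totals, against 62.6% lower and 19.6% higher among 6809 genes. No member was higher at an unadjusted p below 0.05 either, and DESeq2, which scales by the median gene, called 7 higher and 1 lower. The shares of all genes by DESeq2 are not given, so the DESeq2 counts are no result about the members. With TMM scaling 10 were higher and 1 lower, against 28.9% and 20.2%. Without cytosol replicate 1 there were 3 members higher on library totals. The members' median was -0.57 and that of all genes -0.66. The lowest were PSMD11 at -1.02 ± 0.14, PSME4 at -0.96 ± 0.14 and PSME1 at -0.94 ± 0.19. The highest were PSMG1 at 0.41 ± 0.22, PSMD7 at 0.40 ± 0.21 and PSMD12 at 0.21 ± 0.23, none of them called, and over all exons these were at 0.02, 0.18 and -0.79.

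OMM enrichment relative to the cytosol was higher for 8 members and lower for 9, against 16.6% and 39.7% of 6465 genes, and with TMM scaling for 20 and 4, against 24.5% and 20.8%. PSMA7 (1.24 ± 0.12, adjusted p = 5.06e-07), PSMG3 (1.16 ± 0.19) and PSMG4 (1.02 ± 0.23) were among the higher. PSMD7 (1.31 ± 0.24) and PSMG1 (1.17 ± 0.26) were also called, but on the small windows that were low in the cytosol, and over all exons they were at 0.11 and 0.05. The lowest were PSME4 (-1.22 ± 0.16), PSMD11 (-0.99 ± 0.15) and PSMC1 (-0.97 ± 0.24). Without OMM replicate 2 there were 5 members higher and 4 lower.

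In RNA-seq of mRNAs attached to OMM-labelled ribosomes, PSMA7 was again the highest member in wild-type cells, and the beta subunits were above 0 as a group. PSMA7 had 240 and 186 CPM in the total inputs and 765 and 656 CPM in the pulldowns, an enrichment of 1.75 ± 0.10 (adjusted p = 8.89e-06). PSMB6, a catalytic subunit, had 76.2 and 72.6 CPM against 192 and 211 (1.43 ± 0.11, adjusted p = 2.38e-05). PSMG3 had 51.6 and 57.6 CPM against 113 and 131 (1.16 ± 0.10, adjusted p = 4.29e-05). Every pulldown was above both total inputs.

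All 7 constitutive beta subunits were called higher, from 0.58 for PSMB2 to 1.43 for PSMB6, with a median of 0.91. The 20S chaperones PSMG1 (0.67), PSMG3 and PSMG4 (0.61) were higher, and so were PSMD9 (1.03), PSMD8 of the lid (0.94) and both PA28 activators, PSME1 (0.98) and PSME2 (0.69). Of the 6 ATPases 1 was higher, PSMC5 at 0.46, and 2 lower, PSMC2 and PSMC4 at -0.27 and -0.28, and with TMM scaling 2 were higher and 0 lower, also at an unadjusted p below 0.05 and by DESeq2. Lowest apart from PSMA2 were PSME4 with 239 and 209 CPM against 127 and 105 (-0.95 ± 0.08) and PSMD1, the largest subunit of the base, with 269 and 237 CPM against 158 and 127 (-0.84 ± 0.08).

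In all, 20 of 42 members were higher and 8 lower in wild-type RNA-seq, against 20.2% and 45.6% of 13856 genes, with a median of 0.25 for members and -0.28 for all genes. With TMM scaling the counts were 28 and 4, against 31% and 27.8%. PSMA2 was at -3.33 ± 0.49, with 5.11 and 4.24 CPM in the total inputs and 0.45 and 0.47 in the pulldowns, and was at most 0.61 FPKM in any total input, far below the 106 to 137 FPKM of PSMA7 in the same wild-type cells. Of its annotated exon bases 17.3% are shared with a same-strand readthrough gene, and PSMA1, PSMA6, PSMB10 and PSMD9 also share 14.1% to 39.4% of theirs, so the counts given to these genes are uncertain.

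The cells without CHX, whose label names no genotype or gRNA, had 1 replicate and so no test. The 42 members had a median log2 ratio of 0.56 there, against -0.11 for all genes, and 38 were above the median of all genes. PSMA7 was at 1.88, PSMB6 at 1.75, PSME1 at 1.57, PSMB1 at 1.51 and PSMD8 at 1.44, and the lowest were PSMA2 at -2.53, PSME4 at -0.72 and PSMD1 at -0.37. Compared with the mean of the CHX replicates the members were a median of 0.26 higher. The median of all genes, at -0.11, was also above its value with CHX given before, so a rise was not particular to the members. The values of both treatments varied together over the 42 members (Pearson's r = 0.92), which share their lengths and base composition. The light pulse was also shorter without CHX and the line may differ, so the treatment, the labelling time and the line cannot be told apart.

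**Figure D4:**
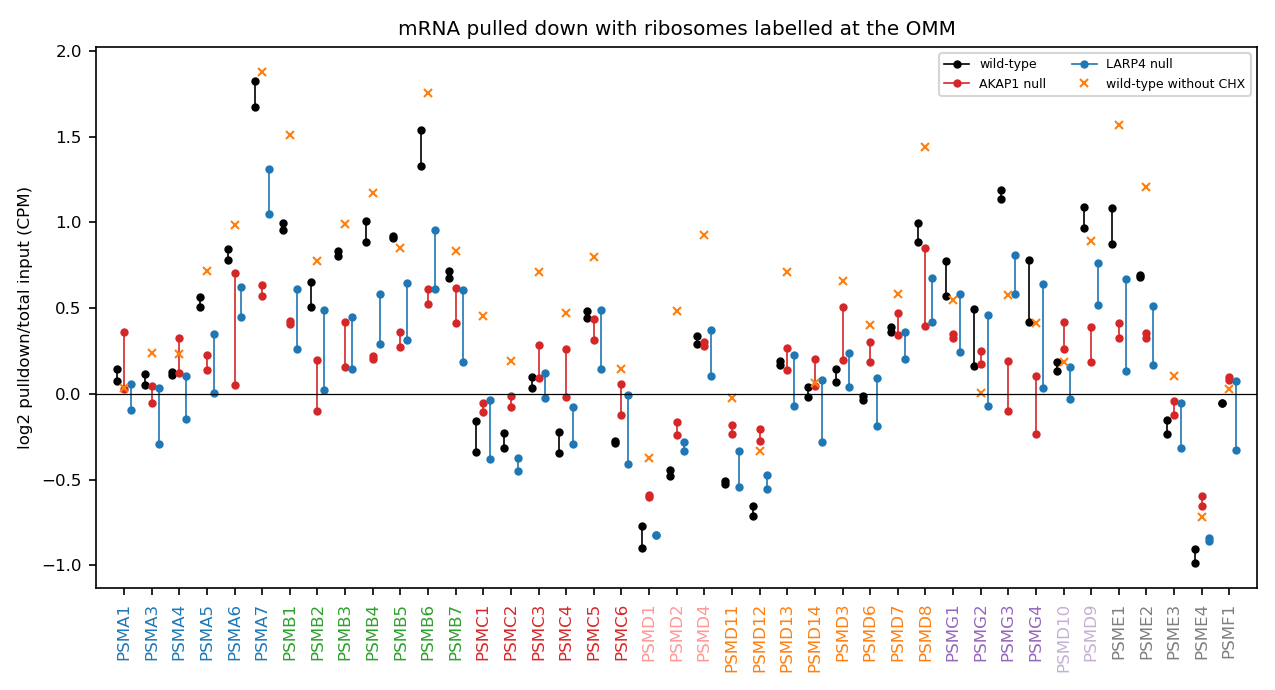
Log2 ratio of CPM in the pulldown to the total input for 41 members (PSMA2, near -3, is left out for scale), with lines joining the 2 replicates of wild-type (black), AKAP1 null (red) and LARP4 null cells (blue) and crosses for the cells without CHX, and gene names coloured by role. The key marks the crosses as wild-type, though their label names no genotype. Wild-type values of all 7 beta subunits are above 0.5, and AKAP1 null values are lower for PSMA7, PSMG3, PSMB6, PSMB4 and PSMD9.

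In AKAP1 null cells the members at the top lost most of their distance from the rest. PSMA7 had 187 and 187 CPM in the total inputs and 290 and 277 in the pulldowns, an enrichment of 0.60 ± 0.10, and the difference from wild-type was -1.14 ± 0.14 (adjusted p = 0.00123). PSMG3 had 72.5 and 50.7 CPM against 67.6 and 57.9, a difference from wild-type of -1.12 ± 0.15 (adjusted p = 0.00176). PSMB6 had 79.7 and 77.9 CPM against 122 and 112 (-0.87 ± 0.15, adjusted p = 0.00772). For these genes each AKAP1 null log2 ratio lay below both wild-type ratios.

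Of 42 members, 7 were called lower in OMM enrichment in AKAP1 null cells than in wild-type and 1 higher, against 7.96% and 6.52% of 13856 genes. The others called lower were PSMD9 (-0.74 ± 0.15), PSMB4 (-0.74 ± 0.14), PSMB5 (-0.59 ± 0.14) and PSMB1 (-0.56 ± 0.14), so 4 of the 7 beta subunits passed and their median was -0.56 where that of all genes was 0.19. PSMB2 and PSMB3 were at -0.53 each and not called. PSMD12 of the lid was called higher at 0.45 ± 0.12 (adjusted p = 0.0403), and with TMM scaling it was at 0.28 and not called, with 0 members higher and 10 lower, against 2.06% and 10.3%. Next to it were PSMC4 at 0.41 ± 0.15 and PSME4 at 0.32 ± 0.12, neither called. The 6 ATPases, with a median of 0.20, held no call in either direction by edgeR or DESeq2 (1 at an unadjusted p below 0.05 by edgeR, higher, and 0 by DESeq2). Over all 42 members the median was -0.19 relative to that of all genes. Leaving out any replicate of either line left 2 members lower, PSMA7 and PSMG3.

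Within AKAP1 null cells 14 members were still higher in the pulldown than in the total input and 4 lower, against 13.9% and 28.1% of all genes, and with TMM scaling 21 and 3, against 20% and 20.7%. The SD over members was 0.60 there and 0.83 in wild-type. Both SDs include PSMA2, far below the other members in each line and with uncertain counts, so they overstate the spread among the rest. The lowest was PSMA2 at -3.30 ± 0.48, with 4.68 and 5.0 CPM in the total inputs and 0.54 and 0.44 in the pulldowns, followed by PSME4 at -0.62 ± 0.08 and PSMD1 at -0.60 ± 0.08, and PSMD8 was the highest at 0.62 ± 0.12. Most of the 14 calls were lost when either replicate of AKAP1 null was left out, with members' medians of 0.17 without replicate 1 and 0.27 without replicate 2. DESeq2 on all libraries called 24 members higher. The share of all genes by DESeq2 is not given, so that count is no result about the members.

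In LARP4 null cells PSMA7 had 168 and 175 CPM in the total inputs and 418 and 362 in the pulldowns (1.18 ± 0.10). PSMB6 had 79.9 and 69.9 CPM against 155 and 107 (0.78 ± 0.11) and PSMG3 had 58.5 and 56.9 against 103 and 85.1 (0.70 ± 0.10). Each ratio was below both wild-type ratios. Within the line 16 members were higher and 7 lower, against 22.8% and 30% of all genes, and with TMM scaling 18 and 6, against 27.9% and 25%. Without replicate 1 of LARP4 null the members' median was -0.01, and without replicate 2 it was 0.23. The lowest were PSMA2 at -2.71 ± 0.47, with 4.53 and 4.56 CPM in the total inputs and 0.24 and 1.37 in the pulldowns, PSME4 at -0.85 ± 0.08 and PSMD1 at -0.82 ± 0.08.

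The difference from wild-type was called for none of the 42 members in LARP4 null cells by edgeR, as for 0% of all 13856 genes, with 2270 genes and 11 members at an unadjusted p below 0.05. DESeq2 called 2 genes higher and 454 lower, and 8 members, all lower. The fitted values were -0.65 for PSMB6, -0.58 for PSME1 and -0.56 for PSMA7 at the low end, and the median of the beta subunits was -0.51. Highest were PSMA2 at 0.62, PSMD12 at 0.17 and PSMD2 at 0.16. The median of all genes was also above 0, near the values of PSMD12 and PSMD2. Replicate 2 of LARP4 null had lower ratios than replicate 1 for most members, by a median of 0.26. Without replicate 1 the members' median difference from wild-type was -0.27, and without replicate 2 it was -0.03. Each of these medians rests on a lone LARP4 null sample, and those of all genes in the same fits are not given.

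The mRNA level in the total inputs was called for no member in either null line. None of the 42 was called in AKAP1 null against wild-type, where edgeR called 0% of 13977 genes (489 at an unadjusted p below 0.05, among them 2 members, and 8 genes higher, 7 lower and no member by DESeq2). Fitted differences ran from -0.22 for PSMA4 to 0.39 for PSMC1, with a median of 0.14 for members and 0.00 for all genes, and PSMA7 was at -0.18 ± 0.13. In LARP4 null cells none was called either, against 0.0143% of genes (509 at an unadjusted p below 0.05, among them 1 member, and 14 genes higher, 14 lower and no member by DESeq2). There the members ran from -0.29 for PSMA7 to 0.27 for PSMD14 and PSME4. With 2 replicates a group, differences within this range are not resolved.

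Protein length ordered the members. Across the 35 members tested at the OMM, log2 protein length and enrichment had a Pearson's r of -0.71, across 38 members over all exons one of -0.78, and across 41 members in wild-type RNA-seq without PSMA2 one of -0.71. The genes share libraries, and length goes with role and base composition, so these are descriptions. Also without PSMA2, r was -0.55 in AKAP1 null cells (Spearman's rho -0.37), -0.70 in LARP4 null cells and 0.67 for the difference of AKAP1 null from wild-type. Over all 42 members r was -0.45 in wild-type, -0.17 in AKAP1 null and -0.41 in LARP4 null cells and 0.66 for that difference. At the ER it was -0.47 and in the cytosol -0.12.

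Against genes of the same length, the members between 200 and 300 aa were called higher at the OMM in 7 of 16 cases, where 28.0% of 897 genes were, and in wild-type RNA-seq in 14 of 22, where 39.7% of 1606 genes were. Their medians were 0.18 against 0.03 and 0.68 against 0.15. Above 400 aa, 1 of 10 members was higher at the OMM, where 5.99% of 4007 genes were, and the medians were -0.57 and -0.64. Below 200 aa, PSMG3 and PSMG4 were both higher, where 60.2% of 872 genes were. PSMA7, with 248 aa, was the highest member of its length class, and the alpha subunits PSMA3, PSMA4 and PSMA5 of almost equal length (255, 261 and 241 aa) were at -0.70, -0.36 and -0.13. Over all exons PSMA7 was at 1.26 and these at -0.26, -0.31 and -0.03.

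**Figure D5:**
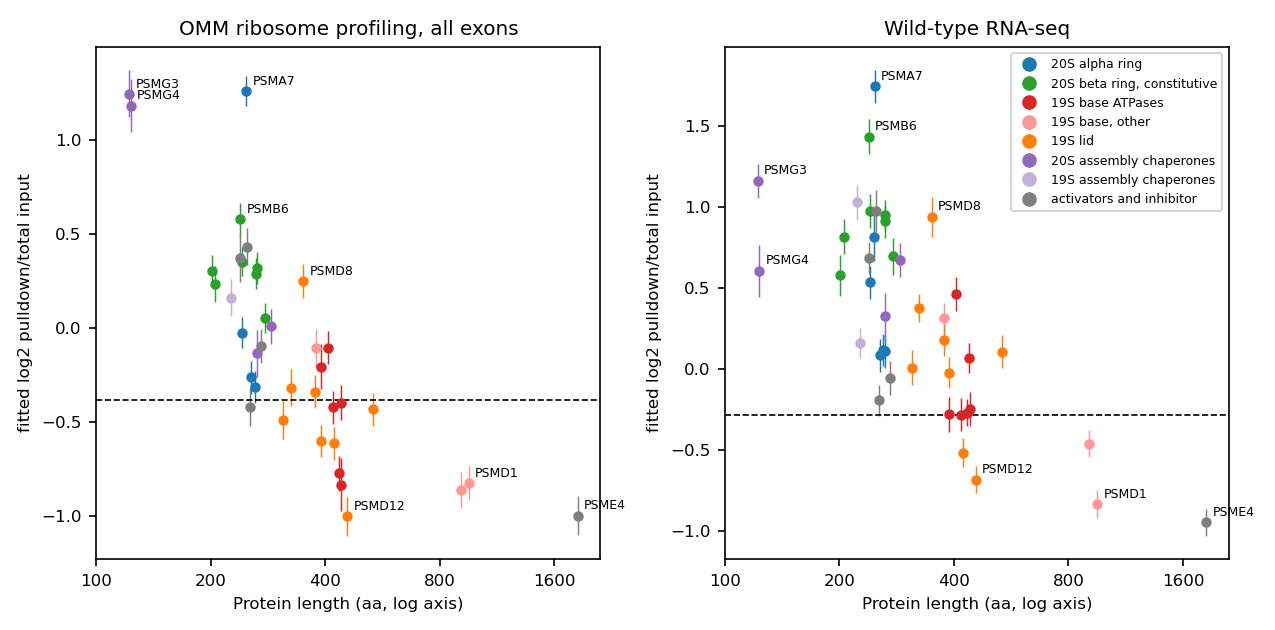
Fitted log2 enrichment with its standard error against protein length (log axis) at the OMM in ribosome profiling over all exons (38 members) and in wild-type RNA-seq (41 members, without PSMA2), with the median of all genes tested dashed (-0.38 and -0.28). Values fall from PSMG3, PSMA7 and PSMB6 to PSMD1 and PSME4, and PSMA7 and PSMD8 lie above members of similar length.

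Agreement between replicates over the members differed by location and line. Over 35 members the ratios of replicate 1 and 2 had r = 0.87 at the OMM and the ER (all exons, 38 members, 0.96 and 0.94) and 0.99 in wild-type RNA-seq over 42 members. In the cytosol r was 0.88 on counted positions and 0.45 over all exons, where the SD over members was 0.15, and it was 0.95 in AKAP1 null and 0.88 in LARP4 null cells. Enrichment at the OMM in footprints and in wild-type mRNA had r = 0.81 over 35 members and 0.89 over 38 with all exons. The SD among members at the OMM was 0.61, next to 0.71 over all genes, 0.16 for the CCT chaperonin (7 genes, all 7 lower, median -0.60), 0.72 for the eIF3 complex (11 genes, median -0.16) and 0.81 for the COP9 signalosome (8 genes, median -0.18). At the ER it was 0.34, next to 0.06 for CCT, 0.39 for eIF3 and 0.24 for COP9. The complexes were not matched for protein length, which ran from 122 to 1843 aa among the 48 members, so these spreads are not like for like. In wild-type RNA-seq the medians were -0.29 for CCT, 0.07 for eIF3 and 0.17 for COP9, and in AKAP1 null against wild-type the called counts were 0 of 8, 1 of 13 lower, and 1 higher and 1 lower of 10, where 7.96% of all genes were lower and 6.52% higher.

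Among genes that serve the proteasome without a PSM symbol, POMP was above every tested member at the OMM on counted positions. Of 24 associated and regulatory genes tested there, 3 were higher and 15 lower, where 17% and 46% of all genes were, and with TMM scaling 5 were higher and 8 lower. POMP, the maturation factor of the 20S core (141 aa), had log2 ratios of 1.91 and 1.69 (fitted 1.80 ± 0.11, adjusted p = 2.32e-10). SEM1, a short lid subunit of 70 aa, had 1.43 and 1.29 (1.35 ± 0.11). Over all exons POMP was at 1.31 and SEM1 at 1.20, where PSMA7 was at 1.26. POMP and SEM1 encode proteins below 200 aa, a length class in which 60.2% of 872 genes were higher at the OMM. In RNA-seq POMP and SEM1 were at 1.65 and 1.73 in wild-type cells, and their difference in AKAP1 null cells was -1.11 ± 0.15 and -2.06 ± 0.16 (adjusted p = 0.00226 and 0.00033). ZFAND2A, whose product binds the 19S particle under arsenite stress, was at -0.91 ± 0.17. Of the 28 genes tested 5 were lower and 6 higher, where 7.96% and 6.52% of all genes were, and with TMM scaling 5 were lower and 1 higher. Those higher on library totals, where the median of all genes was 0.19, included UBQLN2 at 0.69, UBQLN1 at 0.59 and UBQLN4 at 0.55, which code for ubiquilin shuttles.

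At the ER, 1 of 23 of these genes was higher and 22 lower, where 19.8% and 72% of all genes were, and with TMM scaling 2 were higher and 7 lower. The higher on library totals was NFE2L1, the transcription factor of proteasome genes, whose protein is inserted into the ER membrane, with log2 ratios of 2.47 and 2.05 (fitted 2.27 ± 0.14, adjusted p = 6.93e-11). The lowest were the scaffold ECPAS (-1.33 ± 0.09), UBQLN2 (-1.14 ± 0.09) and the autophagy receptor SQSTM1 (-1.05 ± 0.10). In the cytosol, SEM1 was the lower of the 2 called genes at -1.24 ± 0.10, with ratios of -1.35 and -1.12 and -1.30 over all exons, and UBQLN2 the higher at 0.32 ± 0.09.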

How the data were processed

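Footprints of 12 ribosome profiling libraries had been aligned by the authors (Bowtie, TopHat) to GRCh38 and counted with plastid (27 to 36 nt, 13 nt ignored at each end, Ensembl 104), per the file headers and the study's methods. The deposited estimated counts cover the coding positions kept in the authors' position file, which masks positions where reads cannot align uniquely, and need not be whole. The positions can outnumber those of the canonical coding sequence (PSMG4, PSMB7, PSMB8). The deposited RPKM divide these counts by counted length and reads on transcripts. The authors deposited RNA-seq counts per gene for 14 libraries (STAR, featureCounts, Ensembl 99, on GRCh38). The deposited values named FPKM, about 10 times the FPKM from the counts, were treated as a score and not used. Own FPKM were computed from counts. Lines of 1 broken entry, 3 to 7 per RNA-seq file, were left out.

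Estimated counts were rounded and tested with edgeR 4.0.16 (quasi-likelihood, two-sided) in R 4.3.3 with a term per lysate, since pulldown and total input share a lysate per the study's methods. Each data type with replicates was 1 fit of 12 libraries. Library totals set the scale, and TMM in total inputs alone. Genes needed 64 footprints in both total inputs, or a mean of 64 RNA-seq counts. Calls have a Benjamini-Hochberg adjusted p below 0.05 over all genes tested. Log2 ratios of CPM have 0.5 counts added. The labels number the replicates, and p-values measure the spread between them, which may be technical. Scripts were tested on simulated data. Promoters are from RefSeq. Positions and lengths are from GENCODE 44. Summaries were made in pandas 2.3.3 and numpy 2.4.6 and plots in matplotlib 3.10.9, under Python 3.11.15.

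Named members were taken from the 3 highest and 3 lowest members of each comparison, members over 3 scaled median absolute deviations from the members' median, called members between genotypes (up to 5 a direction) and up to 3 associated genes a direction. The value of 1 associated gene is not reported here. Members and lists were chosen with earlier results of these data known. Alternatives were TMM, DESeq2 1.42.0, minimums of 10 and 256 counts, no lysate term, leaving out each replicate and, added later, counts over all exons. As a check of pairing, deviations of pulldown and total input from their group means correlated at 0.58 to 0.88 across genes in every group. Same-numbered total inputs of different lines correlated at 0.19 and 0.34 with wild-type and -0.07 between the null lines, so their numbers were not taken as pairs.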

Additional observations from a re-analysis of the deposited data

Results flagged for a closer look

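The results below are differences in enrichment between locations or between lines that passed the test of the difference itself, in 1 fit over all libraries of a data type. At the ER, 21 members had a lower enrichment than in the cytosol on library totals, led by PSMD11, a lid subunit (-1.02 on the log2 scale), the large activator PSME4 (-0.96) and PSME1 of the PA28 activator (-0.94). Among all genes 62.6% were lower, so the share of members was near the background, and with TMM scaling 1 member was lower and 10 higher. At the outer mitochondrial membrane (OMM) 8 members were higher than in the cytosol and 9 lower, against 16.6% and 39.7% of all genes. Over all exons 4 were higher. The number lower and the shares of all genes over all exons are not given, so that count is no result about the members. The highest were PSMD7 (1.31), PSMA7 (1.24) and the 20S chaperone PSMG1 (1.17), and the lowest PSME4 (-1.22), PSMD11 (-0.99) and the ATPase PSMC1 (-0.97). The values of PSMD7 and PSMG1 go with small counted windows, as given above.

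OMM enrichment in RNA-seq was lower in AKAP1 null than in wild-type cells for 7 members and higher for 1, against 7.96% and 6.52% of all genes. When any replicate of either line was left out, 2 members remained lower and 0 higher. The lower included PSMA7 of the gate ring (-1.14), the chaperone PSMG3 (-1.12), the beta subunits PSMB6 (-0.87) and PSMB4 (-0.74) and the 19S chaperone PSMD9 (-0.74), whose exons overlap another gene. PSMD12 was called higher (0.45), and not with TMM scaling. No group held 4 or more libraries, so no single library was tested for standing apart from its group.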

How the results depend on the processing

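Counts are members called higher and lower, and the cause of each change was not tested. Shares of all genes are not given for these settings, apart from those stated above. The counts show how calls move with the processing and are no result about the members. Main values are on library totals with a term per lysate. DESeq2 and TMM, which centre the median gene, changed the ER from 1 and 31 to 4 and 6 and to 9 and 7, ER minus cytosol from 0 and 21 to 7 and 1 and to 10 and 1, and OMM minus cytosol from 8 and 9 to 18 and 3 and to 20 and 4. They changed the lower counts at the OMM from 14 to 4 and 5 and in wild-type RNA-seq from 8 to 4 and 4. DESeq2 also gave 24 higher in AKAP1 null (14 in the main fit of lines), 0 and 11 for AKAP1 null minus wild-type (1 and 7) and 8 lower for LARP4 null minus wild-type (0), and TMM gave 0 higher for AKAP1 null minus wild-type. All exons gave 1 and 1 in the cytosol (0 and 9) and 4 higher for OMM minus cytosol. All exons with TMM, also chosen after seeing the data, gave 12 and 6 at the ER, 18 and 8 at the OMM, 1 and 1 in the cytosol, 6 and 3 for ER minus cytosol and 16 higher for OMM minus cytosol. A higher minimum count gave 0 higher at the ER and 6 at the OMM, and a minimum of 10 gave 0 higher for AKAP1 null minus wild-type.

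Without the replicate block, that is the pairing of pulldown and total input by lysate, counts were 0 and 18 at the ER, 3 and 2 at the OMM, 1 lower in the cytosol, 4 lower for ER minus cytosol, 0 and 1 for OMM minus cytosol, 4 and 2 in AKAP1 null, 6 and 4 in LARP4 null, and 0 and 2 for AKAP1 null minus wild-type. Total inputs of the lines had 0 calls with and without a block on replicate number. Leaving out 1 replicate in turn gave 0 higher at the ER, 4 to 6 higher and 8 to 12 lower at the OMM, 1 to 2 higher in the cytosol, 0 to 3 higher for ER minus cytosol, 5 to 11 higher and 4 to 10 lower for OMM minus cytosol, 0 to 2 higher and 2 to 3 lower in AKAP1 null, 7 to 14 lower in LARP4 null, 0 higher and 2 lower for AKAP1 null minus wild-type, and 0 to 1 higher and 0 to 18 lower for LARP4 null minus wild-type, each with a lone sample assumed to vary like the other groups.

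Log2 values that changed sign and passed the threshold on either side were PSMB1 at the ER (0.59 by DESeq2, 0.62 with TMM, 0.65 with all exons and TMM), PSMG3 at the ER (0.48, 0.52 and 0.50), PSMD7 and PSMG1 at the ER (0.36 and 0.59 with all exons and TMM), PSMD12 in the cytosol (0.12 over all exons, 0.12 with TMM) and PSMD12 in ER minus cytosol (-0.79 over all exons). Values near 0 also crossed it without a call on either side, such as PSME4 in the cytosol and PSMB1 at the ER over all exons. Of the other values of named genes under an alternative, 647 kept their side of the threshold, 58 lost and 21 gained a call, and 19 moved. The OMM pulldowns, with the fewest footprints, limit what could be seen.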
